A study of Mus musculus with 6 samples.

Results

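Keratin genes were followed through ovarian RNA sequencing libraries of mice from high and low litter size groups. They are the rows of the deposited gene table whose mouse symbol is Krt followed by a digit, with pseudogenes and keratin-associated proteins left out. This gave 53 of the 36727 genes in the table, 28 of type I and 25 of type II, and 2 further Krt rows were left out as pseudogenes. The high litter size group has 3 libraries (replicates 1, 3 and 4) and the low litter size group has 3 (replicates 1, 2 and 5). All libraries are polyadenylated RNA from ovaries of adult F4 inbred Swiss albino females aged 135 to 140 days, with the tissue labelled as estrous-phased, and litter size is the only difference between the groups that the labels give. The labels do not say whether the libraries came from separate animals, and any p-value measures how far these samples scatter, which may be a technical spread. The study's title names ovarian genes related to fitness as the question.

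Keratins form the intermediate filaments of epithelial cells. A filament is built from pairs of 1 acidic type I and 1 basic type II protein, so the genes are used in partner sets. Simple epithelia, such as the surface of the ovary, the oviduct and the uterus, use Krt8 with Krt18 and Krt19, often with Krt7. The basal cells of stratified epithelia, such as skin and vagina, use Krt5 with Krt14 or Krt15, and their upper layers switch to Krt1 with Krt10, or to Krt4 with Krt13 in mucosa. A further set, the hair or hard keratins, is best known from hair, nail and tongue papillae.

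Total estimated counts ran from 17620903 to 24758222 per library. The unit of level is CPM, a count scaled by the TMM-normalized size of its library, and 1 count was worth 0.0390 to 0.0624 CPM. Counting intervals and floors used here cover counting error only. Keratins took between 0.0413 and 0.334% of all counts. The libraries differed in what they held besides epithelium. Granulosa cell markers (8 genes) summed to 38.3, 31.5 and 436 CPM in high replicates 1, 3 and 4, against 281, 42.0 and 243 CPM in low replicates 1, 2 and 5. Inha, the inhibin alpha subunit that marks granulosa cells, had 1.64, 2.12 and 199 CPM in high, against 182, 1.23 and 110 CPM in low libraries. High replicates 1 and 3 and low replicate 2 thus held little Inha, and the fits below are also given without them. Not all 8 markers split the libraries this way. Gatm had 7.56, 14.2 and 37.8 CPM in high, against 4.62, 16.9 and 18.1 CPM in low libraries. Foxl2 differed less, with 21.4, 10.3 and 41.3 CPM in high, against 31.1, 21.6 and 56.3 CPM in low libraries. Of the follicle receptor Fshr, high replicates 1 and 3 held 0 counts, and of Amh low replicate 2 held 0. Adipocyte markers (8 genes) summed to 22768 CPM in high replicate 3, against 283 to 3010 CPM in the other 5 libraries. In bulk tissue, fewer cells of a type and less RNA per cell cannot be told apart.

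Of the simple-epithelial keratins 4 of 5 had lower values in every high library than in any low library (10.8% of all genes). Of the basal keratins of stratified epithelium 2 of 3 had higher values (8.75%), and of the tested hair keratins 4 of 5 had lower values (10.8%). Among these hair keratins, Krt81 and Krt86 could pass the filter on low counts only through the low libraries. None of the 25 keratins that passed the filter on low counts was called by the edgeR quasi-likelihood test at an adjusted p under 0.05, where 0.00608% of all 16455 genes tested were called (1 gene, the immunoglobulin segment Ighv1-9). At an unadjusted p under 0.05, 15 of the 25 keratins were past the threshold, against 14.4% of all genes, 5 of them higher (6.56% of all genes) and 10 lower (7.82%) in the high group. DESeq2 on the same counts called 13 keratins, against 6.24% of all genes, 3 of them higher (2.15% of all genes) and 10 lower (4.08%), and left 3 keratins without an adjusted p. The edgeR likelihood ratio test also called 13, against 3.83% of all genes, with 3 higher (0.954%) and 10 lower (2.88%). By limma voom 1 keratin, Krt81, was called, against 0.0182%. All 13 keratins called by DESeq2 were among those called by the likelihood ratio test.

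For 14 of the 25 tested keratins the values of the 3 high libraries did not overlap those of the 3 low libraries, against 19.5% of all genes tested. Of these, 4 were higher in the high group (8.75% of all genes) and 10 lower (10.8%). The median log2 fold change, high minus low, was 0.20 over the 25 keratins and 0.07 over all genes. Single fold changes were positive for 14 keratins (55.3% of all genes) and negative for 11 (44.7%). The median was -2.47 over the 5 simple-epithelial keratins, 2.57 over the 13 tested stratified-epithelial keratins (0.52 without high replicate 4) and -5.92 over the 5 tested hair keratins, where it stays the same with the 2 genes at 0 in every high library set at their bounds. Krt81 and Krt86 reached the count cutoff of the filter in low libraries only, and Krt222 in high libraries only, so these 3 could pass only by differing between the groups.

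**Figure D1:**
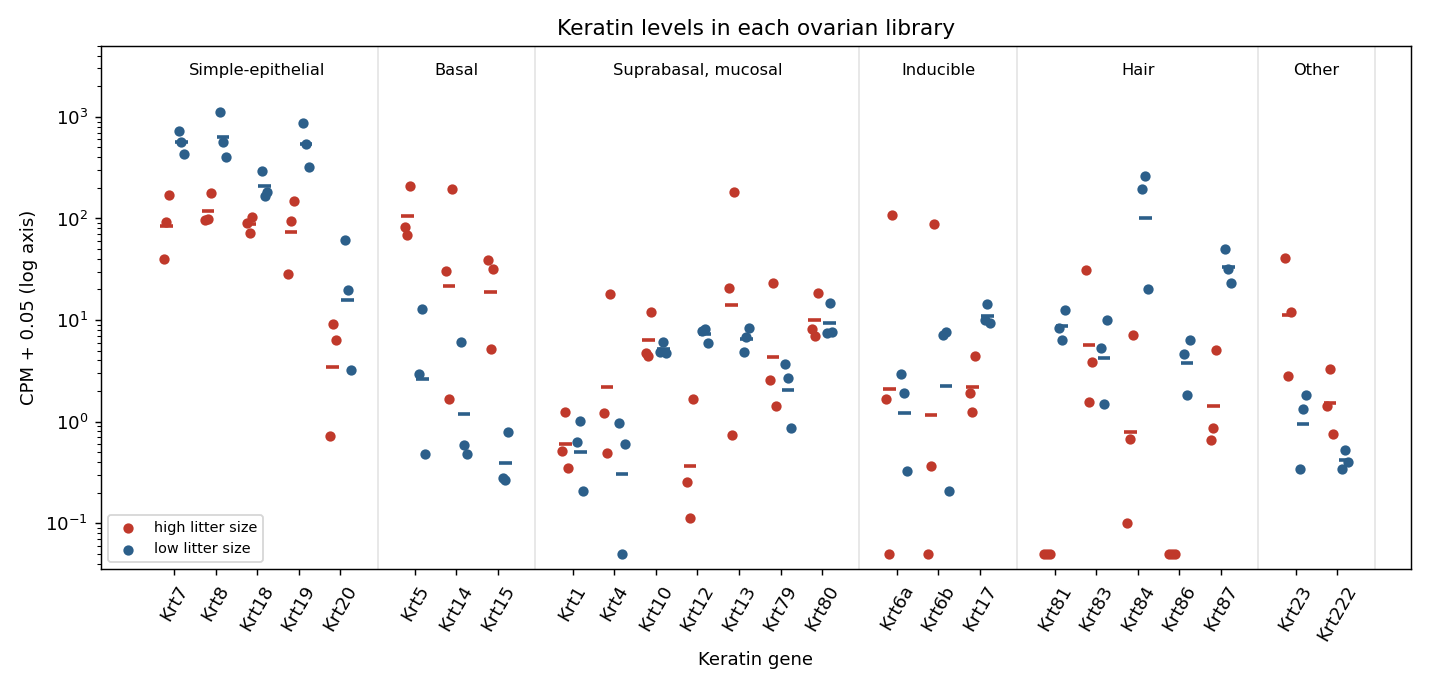
Level of each of the 25 tested keratins in every library, as CPM plus 0.05 on a log axis, with the 3 high litter size libraries left of the 3 low litter size libraries and a line at the geometric mean of each group. For Krt8 the high libraries sit between 96.8 and 178 CPM and the low libraries between 399 and 1112 CPM, while Krt81 and Krt86 are at 0 in every high library.

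Krt8 (ENSMUSG00000049382, chr15:101996698-102004482 on GRCm38, minus strand), the type II keratin of all simple epithelia, had 96.8, 99.3 and 178 CPM in high replicates 1, 3 and 4, against 1112, 568 and 399 CPM in low replicates 1, 2 and 5. The groups did not overlap, with low replicate 1 highest. The fit gave a log2 fold change of -2.47 (SE 0.49, edgeR adjusted p = 0.162, DESeq2 adjusted p = 5.8e-05). Of the 31-base sequence words of Krt8, 32.2% are shared with its pseudogene Krt8-ps, whose own row held at most 17 counts in any library.

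Krt18 (ENSMUSG00000023043, chr15:102028180-102032027, plus strand), the type I partner of Krt8 and its neighbour on the chromosome, had 89.5, 72.6 and 103 CPM in high, against 294, 166 and 183 CPM in low libraries. Its groups did not overlap either, with high replicate 3 the lowest library. Krt18 had a log2 fold change of -1.28 (SE 0.29, edgeR adjusted p = 0.19, DESeq2 adjusted p = 0.0051). Of the 31-base words of Krt18, 88.6% occur in no other gene, and none is shared with another keratin.

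Krt19 (chr11:100140810-100148665, minus strand), a type I keratin that pairs with Krt8 in ducts and glands, had 28.5, 94.9 and 148 CPM in high, against 878, 543 and 321 CPM in low libraries. The groups did not overlap, with high replicate 1 the lowest library and low replicate 1 the highest. High minus low, the log2 fold change was -2.68 (SE 0.67, edgeR adjusted p = 0.205, DESeq2 adjusted p = 0.0015).

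Krt7 (chr15:101411043-101430313, plus strand), the type II keratin of ductal, Mullerian and mesothelial epithelia, had 39.6, 91.7 and 168 CPM in high, against 724, 565 and 429 CPM in low libraries. As for Krt19, high replicate 1 was lowest and low replicate 1 highest, with no overlap. Krt7 had a log2 fold change of -2.52 (SE 0.55, edgeR adjusted p = 0.182, DESeq2 adjusted p = 0.00038). Krt20, a type I keratin known from intestinal and urothelial cells, had 0.664, 9.18 and 6.33 CPM in high, against 61.3, 19.8 and 3.16 CPM in low libraries. Here the groups overlapped, since low replicate 5 lay below high replicates 3 and 4, and the log2 fold change was -2.38 (SE 1.20, edgeR adjusted p = 0.42), or -1.09 without low replicate 1.

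With high replicate 4 set against low replicates 1 and 5 only, the 3 libraries with the most granulosa markers, the log2 fold changes were -2.11 for Krt8, -1.24 for Krt18, -2.05 for Krt19, -1.81 for Krt7 and -2.37 for Krt20. The 5 simple-epithelial keratins kept negative log2 fold changes when any single library was left out, with a median between -2.85 and -1.95. Without high replicate 4 they were -3.16 for Krt7 and -3.27 for Krt19. In these 1-library-out fits no keratin was called by edgeR.

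Promoters of 36 of the 53 keratins were found in the RefSeq table (GRCm38.p6, 250 bases before to 50 bases after the annotated start), among them 12 tested keratins. Shown are the 6 tested keratins with a negative log2 fold change and a promoter in the table, and Krt5 as the basal keratin of higher value. Capitals mark matches, on either strand, to TATAAA (the TATA box), GGGCGG (the GC box), TGANTCA (AP-1) and GCCNNNGGC (AP-2), and matches of different motifs were allowed to overlap.
Krt8, chr15:102004293-102004592, minus strand: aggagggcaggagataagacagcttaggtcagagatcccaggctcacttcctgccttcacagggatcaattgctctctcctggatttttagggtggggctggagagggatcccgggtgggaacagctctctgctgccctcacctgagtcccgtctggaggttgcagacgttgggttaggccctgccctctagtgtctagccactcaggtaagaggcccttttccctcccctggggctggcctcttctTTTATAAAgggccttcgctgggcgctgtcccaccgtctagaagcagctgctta
Krt7, chr15:101412153-101412452, plus strand: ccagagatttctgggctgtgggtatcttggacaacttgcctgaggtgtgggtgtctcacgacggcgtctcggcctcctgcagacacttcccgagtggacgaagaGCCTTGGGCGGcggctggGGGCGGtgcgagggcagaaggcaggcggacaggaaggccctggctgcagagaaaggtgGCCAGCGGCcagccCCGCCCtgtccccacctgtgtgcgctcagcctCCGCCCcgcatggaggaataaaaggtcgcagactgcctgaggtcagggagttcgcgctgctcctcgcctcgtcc
Krt18, chr15:102027966-102028265, plus strand: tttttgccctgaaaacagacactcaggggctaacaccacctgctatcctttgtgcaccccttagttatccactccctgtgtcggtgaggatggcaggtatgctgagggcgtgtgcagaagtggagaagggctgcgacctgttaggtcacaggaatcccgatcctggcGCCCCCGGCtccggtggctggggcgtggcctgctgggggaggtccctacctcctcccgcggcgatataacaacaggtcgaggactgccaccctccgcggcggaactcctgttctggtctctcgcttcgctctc
Krt20, chr11:99438104-99438403, minus strand: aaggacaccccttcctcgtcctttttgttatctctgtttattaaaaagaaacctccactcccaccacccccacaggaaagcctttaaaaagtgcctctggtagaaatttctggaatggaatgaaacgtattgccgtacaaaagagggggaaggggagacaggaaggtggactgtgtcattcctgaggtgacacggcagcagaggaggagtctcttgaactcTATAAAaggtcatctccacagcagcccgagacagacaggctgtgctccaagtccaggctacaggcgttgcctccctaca
Krt12, chr11:99422210-99422509, minus strand: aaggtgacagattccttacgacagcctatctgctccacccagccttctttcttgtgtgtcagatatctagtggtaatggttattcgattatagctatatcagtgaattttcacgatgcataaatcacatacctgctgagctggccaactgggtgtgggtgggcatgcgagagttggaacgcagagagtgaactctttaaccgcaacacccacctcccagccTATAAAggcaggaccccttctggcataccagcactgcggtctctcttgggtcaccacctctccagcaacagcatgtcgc
Krt84, chr15:101532771-101533070, minus strand: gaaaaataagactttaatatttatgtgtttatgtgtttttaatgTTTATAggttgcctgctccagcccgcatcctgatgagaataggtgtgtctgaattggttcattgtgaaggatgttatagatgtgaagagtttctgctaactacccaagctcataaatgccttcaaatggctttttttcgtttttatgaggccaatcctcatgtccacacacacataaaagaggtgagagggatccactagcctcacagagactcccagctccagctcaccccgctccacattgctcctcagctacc
Krt5, chr15:101712856-101713155, minus strand: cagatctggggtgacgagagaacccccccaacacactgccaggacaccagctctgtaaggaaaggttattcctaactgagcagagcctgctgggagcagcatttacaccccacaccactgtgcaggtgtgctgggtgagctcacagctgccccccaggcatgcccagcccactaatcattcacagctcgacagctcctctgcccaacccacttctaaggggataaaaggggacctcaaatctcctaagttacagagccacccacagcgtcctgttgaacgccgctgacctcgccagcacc

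In the Krt8 window TATAAA overlapped itself on the 2 strands, with first bases at -3 and -1 from the start. The Krt7 window had 66.3% G and C, with 4 GC boxes and 2 AP-2 matches, and the Krt18 window had 61.3%, with 1 AP-2 match at -83 from the start. Krt20 and Krt12 each had TATAAA with its first base at -29, and Krt84 had a match at -206 on the other strand. In the Krt5 window none of the 4 motifs was matched. Among all 32851 promoter windows of this length in the table, 13.6% held TATAAA, 35.7% GGGCGG, 7.81% TGANTCA and 16.6% GCCNNNGGC, and among the 36 keratins TATAAA was in 19, GGGCGG in 2, TGANTCA in 1 and GCCNNNGGC in 7. These matches are descriptions of the letters in the windows. The RefSeq start of these windows is the GENCODE gene start for Krt12 and Krt84, and lies 3 bases from it for Krt20, 7 for Krt5, 36 for Krt18, 140 for Krt8 and 1360 for Krt7, so the positions given for Krt7, Krt8 and Krt18 rest on the RefSeq start.

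Krt5 (ENSMUSG00000061527, chr15:101707070-101712898, minus strand), the type II keratin of basal cells, had 81.5, 68.2 and 207 CPM in high replicates 1, 3 and 4, against 2.89, 12.9 and 0.429 CPM in low replicates 1, 2 and 5. The lowest high library, replicate 3, lay above the highest low library, replicate 2. The fit gave a log2 fold change of 4.46 (SE 1.17, edgeR adjusted p = 0.214, DESeq2 adjusted p = 0.0004). It was between 3.78, without high replicate 4, and 6.19, without low replicate 2, when 1 library was left out.

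Krt15 (ENSMUSG00000054146, chr11:100131758-100135928, minus strand), a type I keratin of basal and stem cells of stratified epithelium, had 39.3, 5.12 and 32.0 CPM in high, against 0.231, 0.213 and 0.741 CPM in low libraries. High replicate 3 was lowest among the high libraries but still above all low libraries. This gave a log2 fold change of 5.94 (SE 0.97, edgeR adjusted p = 0.141, DESeq2 adjusted p = 9.9e-10).

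Krt14 (chr11:100203162-100207548, minus strand), the usual type I partner of Krt5, did not separate the groups. It had 30.5, 1.62 and 193 CPM in high, against 6.07, 0.533 and 0.429 CPM in low libraries. High replicate 3, with 68.2 CPM of Krt5, thus lay below low replicate 1 for Krt14. Of the 31-base words of Krt14, 71.8% occur in no other gene and 17.6% are shared with Krt16. Krt14 had a log2 fold change of 5.03 (SE 1.83, edgeR adjusted p = 0.312, DESeq2 adjusted p = 0.053), and it was 2.79 without high replicate 4. With high replicate 4 against low replicates 1 and 5, the log2 fold changes were 6.98 for Krt5, 5.94 for Krt15 and 5.90 for Krt14.

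The mucosal pair Krt13 and Krt4 stood highest in 1 library. Krt13, the type I keratin of mucosal stratified epithelia, had 20.6, 0.687 and 183 CPM in high replicates 1, 3 and 4, against 4.79, 6.82 and 8.38 CPM in low replicates 1, 2 and 5. Its type II partner Krt4 had 1.18, 0.437 and 17.9 CPM in high, against 0.924, 0 and 0.546 CPM in low libraries. For both genes high replicate 4 stood highest and high replicate 3 lay within or below the low libraries. Log2 fold changes were 3.35 for Krt13 (SE 1.54, edgeR adjusted p = 0.383) and 3.72 for Krt4 (SE 1.69, edgeR adjusted p = 0.379), and without high replicate 4 they were 0.67 and 0.70. With that library against low replicates 1 and 5 they were 4.76 and 4.58.

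Krt6a and Krt6b, near-identical type II keratins induced by injury and found in epithelial appendages, followed the same library. Krt6a had 1.64, 0 and 108 CPM in high, against 2.89, 1.87 and 0.273 CPM in low libraries. Krt6b had 0, 0.312 and 87.2 CPM in high, against 7.10, 7.52 and 0.156 CPM in low libraries. Their log2 fold changes of 4.47 (SE 2.22) and 2.57 (SE 2.29) turned to -1.0 and -5.02 without high replicate 4. Only 48.7% of the 31-base words of Krt6a and 43.0% of those of Krt6b occur in no other gene of the GENCODE M21 transcripts, so their separate counts are uncertain.

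The other stratified keratins differed in direction. Krt17, a type I keratin of appendages and of stressed epithelium, had 1.84, 1.19 and 4.37 CPM in high, against 9.99, 14.3 and 9.32 CPM in low libraries, with no overlap (log2 fold change -2.18, SE 0.55, edgeR adjusted p = 0.205, DESeq2 adjusted p = 0.0048). Krt12, known as the type I keratin of the cornea, had 0.204, 0.0624 and 1.61 CPM in high, against 7.80, 8.16 and 5.92 CPM in low libraries, also with no overlap (log2 fold change -3.51, SE 1.03, edgeR adjusted p = 0.245, DESeq2 adjusted p = 0.008). These 2 stratified keratins, alone among the 13 tested, had negative log2 fold changes in the fit of all libraries, as the simple-epithelial keratins did. With high replicate 4 against low replicates 1 and 5 the log2 fold changes were -1.17 for Krt17 and -2.12 for Krt12, and without high replicate 4 they were -2.90 and -5.69.

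Krt10, the type I keratin of the upper skin layers, had 4.65, 4.37 and 11.9 CPM in high, against 4.79, 6.03 and 4.72 CPM in low libraries (log2 fold change 0.43, SE 0.48, edgeR adjusted p = 0.723). Krt80, a type II keratin of differentiating epithelium, had 8.02, 6.87 and 18.2 CPM in high, against 7.34, 14.7 and 7.52 CPM in low libraries (log2 fold change 0.17, SE 0.49, edgeR adjusted p = 0.904). For both, the groups overlapped and 1 high library, replicate 4, was the highest of all. Krt79, a type II keratin of the hair follicle opening, had 2.5, 23.2 and 1.36 CPM in high, against 3.64, 2.61 and 0.818 CPM in low libraries, so its log2 fold change of 1.94 (SE 1.14, edgeR adjusted p = 0.49) rested on high replicate 3 and was -0.28 without it. Krt1, the type II partner of Krt10, lay between 0.156 and 1.19 CPM in every library (log2 fold change 0.20, SE 0.81).

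**Figure D2:**
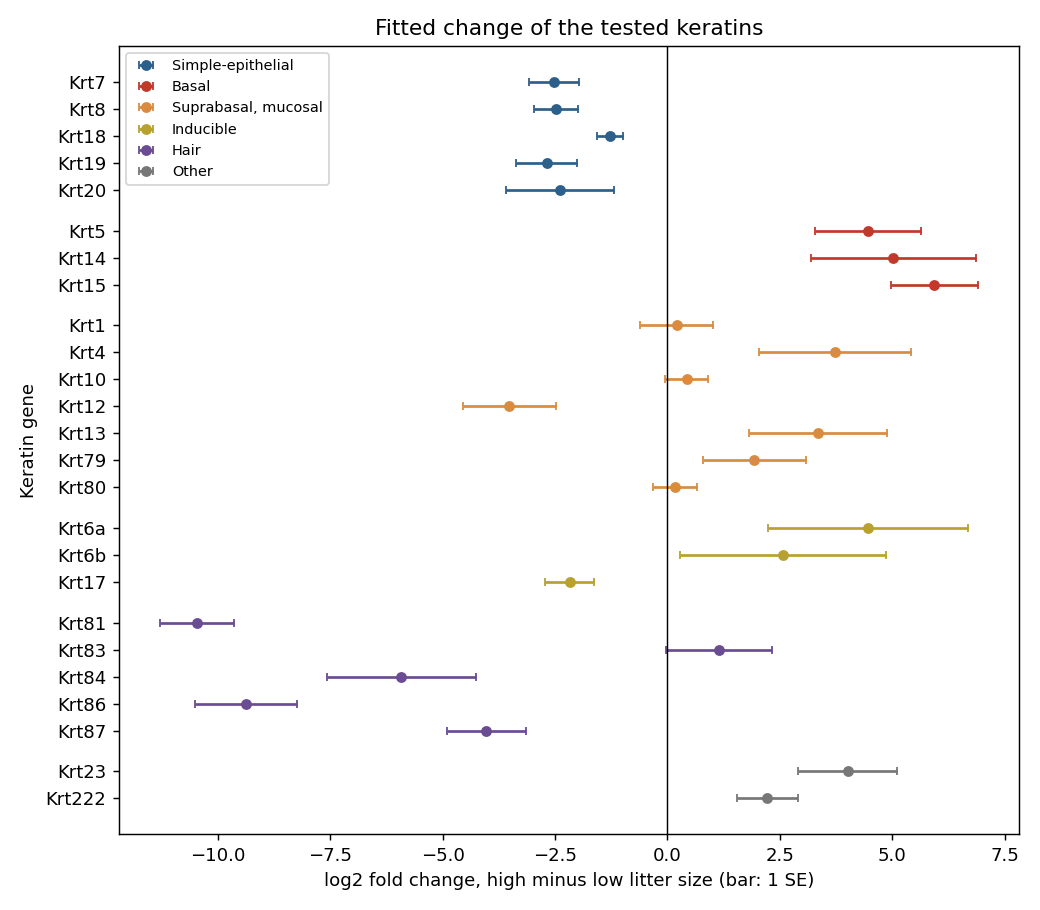
Fitted log2 fold change, high minus low litter size, of the 25 tested keratins with bars of 1 SE, ordered by class. The 5 simple-epithelial keratins lie left of 0, between -2.68 and -1.28, the 3 basal keratins lie right of 0, between 4.46 and 5.94, and of the hair keratins only Krt83 lies right of 0.

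The hair keratins held the most extreme difference. Krt81 (ENSMUSG00000067615, chr15:101459061-101463751, minus strand), a type II keratin of the hair cortex, had 0 counts in each of the 3 high libraries, against 145, 118 and 319 counts in low replicates 1, 2 and 5. Krt86 (ENSMUSG00000067614, chr15:101473478-101479986, plus strand), also of the hair cortex and next to it, had 0 counts in each high library, against 79, 33 and 162 counts in the low libraries. The low libraries thus held 6.29 to 12.4 CPM of Krt81 and 1.76 to 6.31 CPM of Krt86. A bound was taken by setting the summed low libraries against a floor of 3 counts over the summed high libraries. By this bound Krt81 was at least 174-fold lower and Krt86 at least 82.1-fold lower in the high group. It covers counting error in the high group only, not the spread between libraries or counts shared between these genes. Krt81 had an edgeR adjusted p of 0.14, a limma voom adjusted p of 0.042 and a DESeq2 adjusted p of 2.7e-11, and it ranked number 10 of the 16455 genes by edgeR p. Krt86 had an edgeR adjusted p of 0.141 and a DESeq2 adjusted p of 2.4e-07. Both genes reached the count cutoff of the filter in low libraries only. Their p-values and the rank thus describe genes that could be tested only because the groups differ.

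These neighbours are close copies. Over the first 1200 coding bases, counted from the start codon, Krt81 and Krt86 differ at 28 bases, an identity of 97.7%, and they share an identical run of 374 bases, from base 673 to base 1046. The first 90 coding bases are shown because they hold 12 of these differences, marked by capitals.
Krt81: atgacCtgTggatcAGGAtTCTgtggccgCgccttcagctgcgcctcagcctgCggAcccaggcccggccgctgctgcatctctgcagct
Krt86: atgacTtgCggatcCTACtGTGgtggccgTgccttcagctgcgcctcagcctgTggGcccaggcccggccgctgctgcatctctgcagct

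Of the 31-base words of Krt81, 55.4% occur in no other gene, and of those of Krt86, Krt83 and Krt87 50.03, 62.6 and 47.6%. A pseudo-aligner such as kallisto compares reads by words of this length by default, so counts can be shared out among these 4 genes and each value is uncertain to that degree. Krt83 (chr15:101485130-101491512, minus strand), the next gene along, did not follow Krt81. It had 31.3, 1.498 and 3.82 CPM in high, against 5.20, 1.44 and 9.86 CPM in low libraries. High replicate 1 held 613 counts of Krt83 and 0 of Krt81. The log2 fold change of Krt83 was 1.15 (SE 1.17, edgeR adjusted p = 0.699), and it was -1.05 without high replicate 1.

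Krt87 (chr15:101431038-101438804, minus strand), a type II hair keratin beside Krt7, had 0.613, 0.812 and 4.98 CPM in high, against 50.4, 31.6 and 23.3 CPM in low libraries. Its groups did not overlap, and the log2 fold change was -4.03 (SE 0.87, edgeR adjusted p = 0.182, DESeq2 adjusted p = 6.2e-05). Krt84 (chr15:101525026-101532820, minus strand), a type II hard keratin known from the human tongue, had 0.0511, 0.624 and 7.09 CPM in high, against 194, 259 and 20.4 CPM in low libraries. It was the most abundant hair keratin of low replicates 1 and 2, while low replicate 5 was closer to high replicate 4. The log2 fold change of Krt84 was -5.92 (SE 1.66, edgeR adjusted p = 0.229, DESeq2 adjusted p = 0.012), and 99.7% of its 31-base words occur in no other gene. With high replicate 4 against low replicates 1 and 5, log2 fold changes were -3.95 for Krt84 and -2.92 for Krt87, and Krt81 and Krt86 stayed at 0 counts in high replicate 4. Without that library, log2 fold changes were -8.94 for Krt84 and -5.64 for Krt87.

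Outside these classes, Krt23, a type I keratin, had 40.3, 2.75 and 12.02 CPM in high, against 0.289, 1.28 and 1.79 CPM in low libraries. The groups did not overlap, with high replicate 3 nearest to the low libraries (log2 fold change 4.01, SE 1.11, edgeR adjusted p = 0.225, DESeq2 adjusted p = 0.0015). Without high replicate 1 the log2 fold change of Krt23 was 2.71. Krt222, an atypical keratin-like gene, had 1.38, 3.25 and 0.704 CPM in high, against 0.289, 0.48 and 0.351 CPM in low libraries, with a log2 fold change of 2.23 (SE 0.68, edgeR adjusted p = 0.259), or 1.47 without high replicate 3. With high replicate 4 against low replicates 1 and 5, Krt23 had 3.46 and Krt222 1.09 on the log2 scale.

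The other 28 keratins did not pass the filter. Of these, 6 had no count in any library, namely the hair keratins Krt32, Krt33a, Krt34 and Krt40 and the root sheath keratins Krt27 and Krt71, and 19 had counts but stayed under 1 CPM in every library. The remaining 3 were Krt78, a type II keratin of stratified epithelium, with up to 1.71 CPM, Krt16, the type I partner of Krt6a, with up to 1.66 CPM, and the hair keratin Krt36, with up to 1.44 CPM. Krt78 and Krt16 peaked in high replicate 4, with 34 and 33 counts, and Krt36 in high replicate 3, with 23 counts. None of the 7 root sheath keratins passed the filter.

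Levels of different genes can be compared only per length. On the scale of CPM per kb of the principal GENCODE transcript, the simple-epithelial keratins made up 49.2, 76.4 and 39.2% of all keratin signal in high replicates 1, 3 and 4, against 91.7, 85.0 and 91.9% in low replicates 1, 2 and 5. The stratified-epithelial keratins made up 35.1, 21.4 and 58.7% in high, against 1.81, 3.58 and 2.996% in low libraries. Hair keratins made up 6.51, 1.12 and 1.01% in high, against 6.44, 11.4 and 4.89% in low libraries. The shares of simple-epithelial and of stratified-epithelial keratins thus did not overlap between the groups, and those of hair keratins did, with Krt83 the most abundant of them in high replicate 1. Total keratin signal was 284, 247 and 767 CPM per kb in high, against 1678, 1057 and 697 CPM per kb in low libraries, so high replicate 4 reached the level of low replicate 5 with a different makeup.

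**Figure D3:**
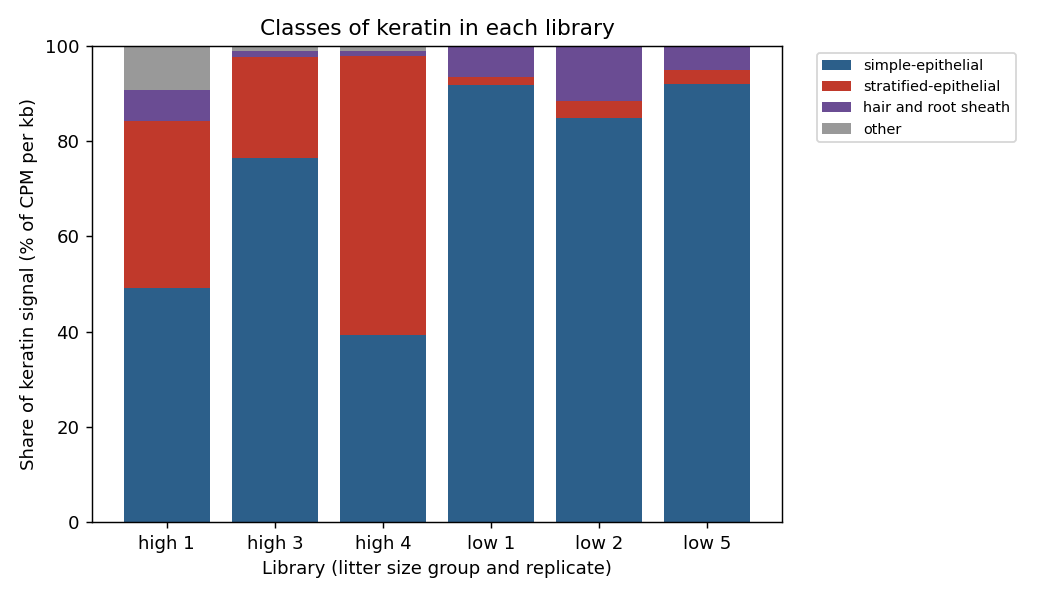
Share of each keratin class in the keratin signal (CPM per kb of transcript, summed over the class) of each library, high litter size left of low litter size. Simple-epithelial keratins fill 39.2 to 76.4% in the high libraries and 85.0 to 91.9% in the low libraries.

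The leading keratin per kb was Krt18 in high replicate 1, Krt19 in high replicate 3 and Krt14 in high replicate 4, with 62.3, 60.2 and 114 CPM per kb. In the low libraries it was Krt8 in replicate 1, with 568 CPM per kb, and Krt19 in replicates 2 and 5, with 344 and 204 CPM per kb. In low replicate 5, Krt19 and Krt8 differed by under 1 CPM per kb. Before scaling by length, Krt7 stood above Krt19 in low replicates 2 and 5, with 565 and 429 CPM against 543 and 321 CPM. The order per kb thus rests on the transcript lengths used. Partner genes were not held at 1 ratio. Krt8 over Krt18, per kb, was 0.793, 1.004 and 1.27 in the high libraries, against 2.77, 2.51 and 1.60 in the low libraries, 1.02 ± 0.241 and 2.30 ± 0.617 on average (SD, n = 3 each). These ratios did not overlap between the groups. Krt8 over Krt19 did overlap, with 2.74, 0.843 and 0.972 in high, against 1.02, 0.842 and 0.999 in low libraries. Krt5 over Krt14 ran from 0.826 to 32.5 within the high group and from 0.368 to 18.7 within the low group. All type II over all type I keratins gave 0.728, 0.944 and 0.779 in high, against 1.06, 1.15 and 0.984 in low libraries. No test was run on these ratios.

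The set of basal over simple keratins, per kb of Krt5, Krt14 and Krt15 over Krt7, Krt8, Krt18 and Krt19, was 0.560, 0.190 and 0.762 in high, against 0.00333, 0.00711 and 0.00138 in low libraries. Every high library was above every low library. This largely repeats the values of its members, most of which separated the groups on their own, and adds no support to them. Krt20, whose groups overlapped, is not in the ratio. The Krt7 transcript used for its per-kb values is 4094 bases long, and other transcript lengths were not tried.

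Keratins lie in 2 clusters, 27 on chromosome 11 and 26 on chromosome 15, where the type I gene Krt18 closes the row of type II genes. In the chromosome 15 cluster the genes in places 2, 3, 5, 6 and 8 are Krt7, Krt87, Krt81, Krt86 and Krt84. They are named because all had lower values in the high group with no overlap (10.8% of all genes). Their number is therefore no test of this stretch of the cluster. Krt87, Krt81 and Krt86 share 31-base words with each other, so their values are not independent. Krt81 and Krt86 also reached the count cutoff of the filter in low libraries only. Krt88, in place 4, did not pass the filter, and Krt80, in place 1, and Krt83, in place 7, overlapped. Krt6b, Krt6a and Krt5 in places 12 to 14 had positive log2 fold changes, and Krt8 and Krt18 in places 25 and 26 had negative ones. Of these, Krt6b and Krt6a overlapped between the groups and turned negative without high replicate 4. On chromosome 11, neighbours differed in sign, with Krt15 at 5.94 and Krt19 at -2.68 in places 21 and 22. In GENCODE M21, no other gene of the table overlapped a keratin gene.

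**Figure D4:**
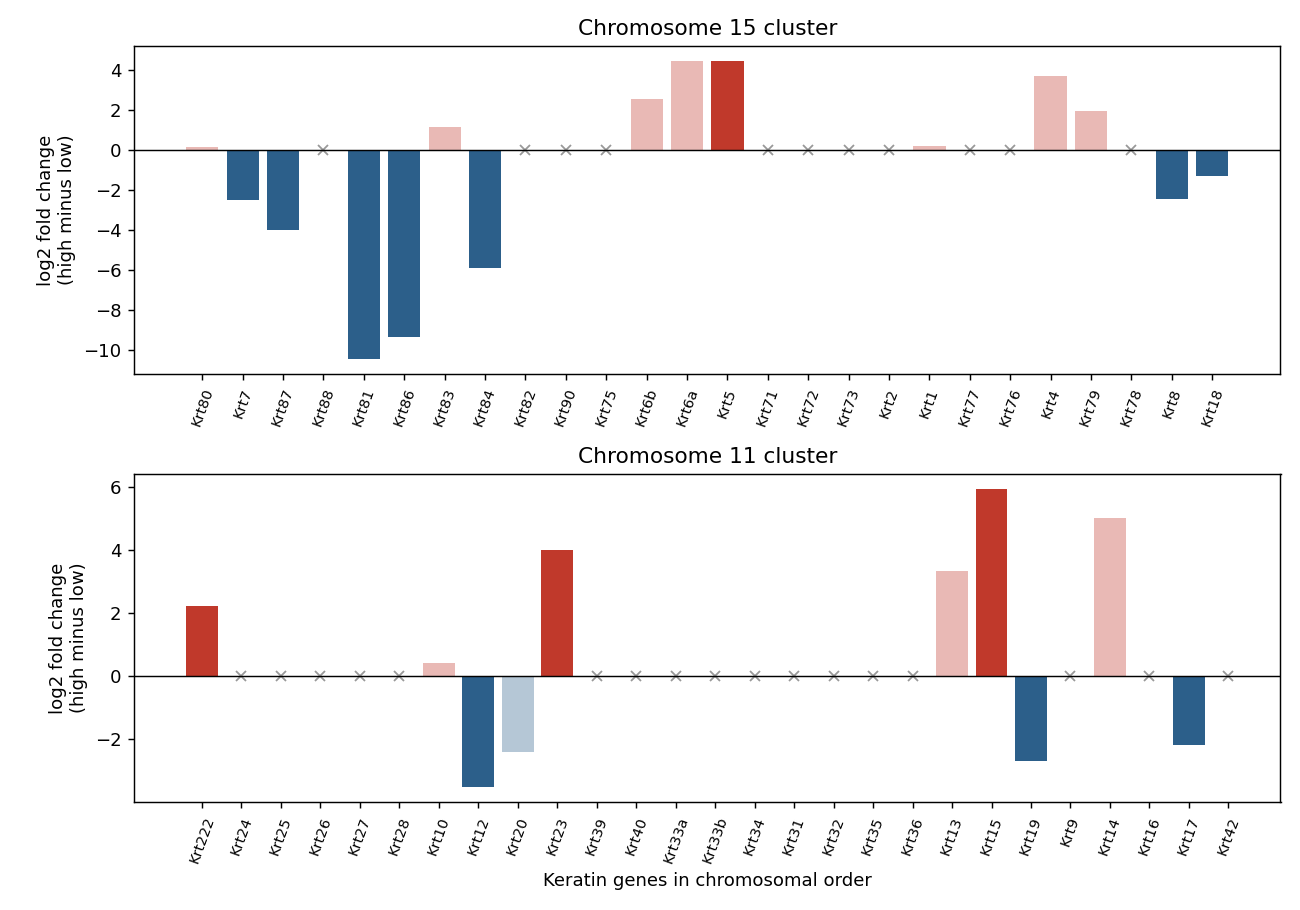
Log2 fold change, high minus low litter size, of the keratins in chromosomal order in the chromosome 15 cluster (top) and the chromosome 11 cluster (bottom), in full colour where the groups do not overlap and pale where they do, with a cross for keratins that did not pass the filter. Krt7, Krt87, Krt81, Krt86 and Krt84 stand near each other with negative values from -10.46 to -2.52, of which those of Krt81 and Krt86, at 0 in the high libraries, depend on the prior count of the fit.

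Genes that work with keratins were counted from lists of textbook members. Among linkers of the desmosome, hemidesmosome and plakin family, which anchor keratin filaments at the membrane, 20 of 24 were tested, of which 16 had a negative and 4 a positive log2 fold change (median -0.59), and none was called by edgeR. DESeq2 called 2 higher (2.15% of all genes) and 6 lower (4.08%). Those of smallest p were Fam83h, which organizes keratin filaments, with a log2 fold change of -1.18, the plakophilin Pkp3 at -1.75, and the desmosomal cadherins Dsg2 at -2.03 and Dsc2 at -3.07. Dsc2 had 12.01, 12.9 and 45.3 CPM in high, against 281, 244 and 63.96 CPM in low libraries, with no overlap.

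Among epithelial transcription factors 15 of 17 were tested, 5 with positive and 10 with negative values (median -0.75), and none was called by edgeR, while DESeq2 called 1 higher (2.15% of all genes) and 5 lower (4.08%). Trp63, which drives the basal keratin program, had a log2 fold change of 3.76 and Ovol2, a repressor that keeps cells epithelial, -3.34. Ovol2 had 1.64, 1.25 and 2.26 CPM in high, against 17.2, 25.3 and 9.90 CPM in low libraries. Klf4 had a log2 fold change of -1.90 and Elf3, a factor of simple epithelium, -3.08, with 22.6, 36.6 and 107 CPM in high, against 577, 625 and 207 CPM in low libraries. Neither Ovol2 nor Elf3 overlapped between the groups.

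The cornified envelope seals the top layers of skin. Its list also holds genes of stratified epithelium that are not parts of the envelope, among them Ly6d and Sfn. Of this list 12 of 19 genes were tested, 8 with positive and 4 with negative values (median 0.89). None was called by edgeR. DESeq2 called 1 higher, Ly6d (2.15% of all genes), and 1 lower, Sfn (4.08%). Ly6d had a log2 fold change of 3.78, Ivl, the envelope protein involucrin, 4.31, Sbsn 1.38 and Sfn -2.13. Ivl had 0.869, 16.5 and 0.654 CPM in high, against 0.289, 0.373 and 0.234 CPM in low libraries, with high replicate 3 far above the rest. It reached the count cutoff of the filter in high libraries only. Of other intermediate filament genes 10 of 15 were tested, 5 in each direction (median -0.08). None was called by edgeR or DESeq2, and 1 was past an unadjusted edgeR p of 0.05, against 14.4% of all genes. The muscle filament gene Des had a log2 fold change of -1.28, Lmnb2 -0.42, Prph 1.83 and Nes 0.39.

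Marker lists of cell types were summed beside the keratins, and Trp63, Ly6d and Sfn are in a partner list as well. Simple epithelium markers (14 genes, no keratin) summed to 589, 423 and 1043 CPM in high replicates 1, 3 and 4, against 3733, 3005 and 1616 CPM in low replicates 1, 2 and 5, and 11 of 14 were lower in the high group with no overlap, against 10.8% of all genes. The simple-epithelial keratins summed to 255, 368 and 604 CPM in high, against 3070, 1861 and 1334 CPM in low libraries, the same order of libraries within the low group. Epcam, an adhesion protein of simple epithelium, had 69.1, 52.2 and 139 CPM in high, against 664, 324 and 299 CPM in low libraries.

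Stratified epithelium markers (13 genes) summed to 105, 99.4 and 337 CPM in high, against 367, 224 and 144 CPM in low libraries, so the sum overlapped, with 5 members higher (8.75% of all genes) and 1 lower (10.8%) in the high group with no overlap. Perp, the largest member of this sum in 5 of the 6 libraries, had 28.6, 24.0 and 107 CPM in high, against 215, 151 and 97.3 CPM in low libraries. Trp63 had 9.40, 14.7 and 11.4 CPM in high, against 0.751, 0.587 and 1.25 CPM in low libraries, and the giant cadherin Fat2 had 10.02, 9.93 and 15.6 CPM in high, against 0.462, 0.0533 and 0.156 CPM in low libraries. Both separated the groups as Krt5 did, but Fat2 reached the count cutoff of the filter in high libraries only. Dsc3, a desmosomal cadherin of basal cells, was at 0 in high replicate 3 and low replicate 2. The basal keratins summed to 151, 74.9 and 432 CPM in high, against 9.18, 13.6 and 1.60 CPM in low libraries.

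Uterus and oviduct markers (11 genes) summed to 739, 1115 and 5618 CPM in high, against 15161, 5822 and 4502 CPM in low libraries, all 11 with counts in every library. Ltf, the lactoferrin of oestrogen-stimulated uterine epithelium, had 89.1, 813 and 3684 CPM in high, against 14146, 4676 and 3186 CPM in low libraries. Ovgp1, the oviductal glycoprotein, had the other order of groups, with 13.8, 149 and 1380 CPM in high, against 7.39, 6.51 and 421 CPM in low libraries, and both genes overlapped. Of the 11 genes 1 was higher (8.75% of all genes) and 3 lower (10.8%) in the high group with no overlap. The 3 lower ones were Pax8, Pax2 and Sprr2f. The higher one, Hoxa13, reached the count cutoff of the filter in high libraries only. Foxj1, a factor of ciliated cells, was highest in high replicate 4, with 60.2 CPM, against 0.716 to 12.2 CPM in the other libraries. Hoxa10, a positional gene of the uterus, was highest in high replicate 1, with 293 CPM, and lay between 29.8 and 98.3 CPM elsewhere. Mesothelium and ovarian surface markers (10 genes) summed to 266, 130 and 235 CPM in high, against 85.3, 87.9 and 133 CPM in low libraries, 3 of them higher in the high group with no overlap (8.75% of all genes) and none lower (10.8%). Adipocyte markers summed to 2676, 22768 and 2046 CPM in high, against 283, 3010 and 766 CPM in low libraries, and Ucp1 was at 0 in low replicates 1 and 2. The part of these cell types in the keratin values was not tested.

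**Figure D5:**
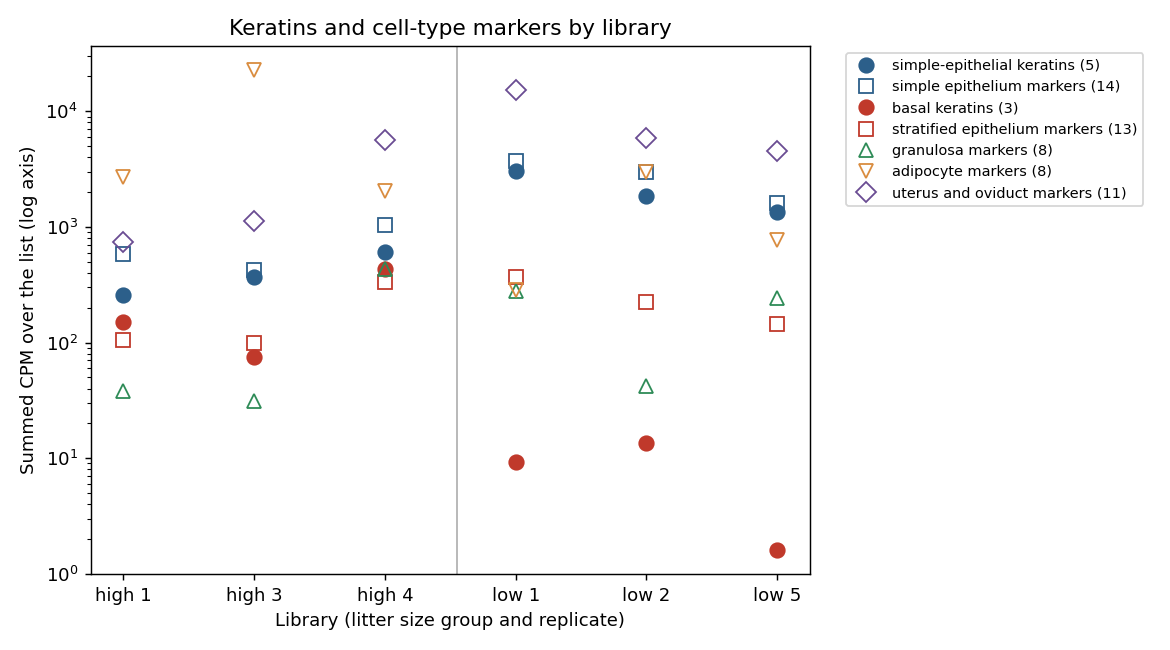
Summed CPM, on a log axis, of simple-epithelial and basal keratins (filled circles) and of 5 lists of cell-type markers (open symbols) in each library, high litter size left of low litter size. Basal keratins lie between 74.9 and 432 CPM in the high libraries and between 1.60 and 13.6 CPM in the low libraries, and granulosa markers are lowest in high replicates 1 and 3 and low replicate 2.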

How the data were processed

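The authors deposited 1 table of estimated counts per gene, whole numbers for 36727 genes in 6 ovarian libraries. Per the submitters' processing notes, kallisto, Trim Galore and DESeq2 were used with GRCm38. Tool versions, annotation release and rounding are not given in the sources used here. Symbols came from a list of gene names (35869 matched), and coordinates, gene types and transcript lengths from GENCODE M21, on the same build. Genes were kept by filterByExpr (minimum count 10, minimum total 15), TMM-normalized and tested with edgeR 4.0.16 (quasi-likelihood, R 4.3.3) for high over low, with no covariate and Benjamini-Hochberg adjustment over all 16455 genes (threshold 0.05). The common dispersion was 0.219. DESeq2 1.42.0 and limma 3.58.1 voom were alternatives, besides other scalings, filters, a robust fit, the likelihood ratio test, a threshold of 0.1 and each library left out. The removal of high replicates 1 and 3 and low replicate 2 was chosen after the data were seen. Figures used Python 3.11.15 and matplotlib 3.10.9. Every tested keratin is named, in full from a mean of 5 CPM, or of 1 CPM without overlap, and of each partner list up to 4 members of smallest p. The members, lists and tests were chosen with earlier results of these data known. Krt88 was put in its class after the table was seen.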

Additional observations from a re-analysis of the deposited data

How the results depend on the processing

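No paired analysis was possible because just replicate number 1 occurs in both groups. Of all genes tested, edgeR called 1, against 1026 by DESeq2, 631 by the edgeR likelihood ratio test, 3 by limma voom and 2 with library size alone. It called 0 to 1 with 1 library left out, 0 being the count without high replicates 1 or 4 or without any of the low replicates, and 0 without high replicates 1 and 3 and low replicate 2. Of the keratins it called 0, against 13 by DESeq2, 13 by the likelihood ratio test and 1 by limma voom. The count was 0 with every scaling, filter and library removal tried, the robust fit and the threshold of 0.1. Log2 fold changes kept their sign for 18 of the 25 tested keratins in every alternative that fitted them, 16 in all, or 15 for Krt1, Krt4 and Krt222, which the minimum of 1 CPM in 3 libraries removed. With 1 library left out, Krt1 ranged from -0.54 to 0.83, Krt6a from -1.0 to 5.13, Krt6b from -5.02 to 3.19, Krt10 from -0.23 to 0.67, Krt79 from -0.28 to 2.41, Krt80 from -0.43 to 0.57 and Krt83 from -1.05 to 1.88. Krt6b had -0.93 by limma voom. Without high replicates 1 and 3 and low replicate 2, Krt1 had -0.27, Krt79 -0.73, Krt83 -1.01, Krt6a 6.12, Krt6b 4.58, Krt10 1.29 and Krt80 1.26. The cause was not tested. That fit leaves high replicate 4 alone, whose spread is taken to equal that of low replicates 1 and 5. At these depths 3 counts amount to 0.117 to 0.187 CPM, and for genes near 0 counts smaller differences lie within counting error. At higher counts the counting error is wider in CPM. The value of 3 counts is no detection limit of the test, since edgeR did not call Krt15 at a log2 fold change of 5.94.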

Other observations

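The processed pseudogene Krt8-ps, left out of the keratins, shares 67.9% of its 31-base words with Krt8. It had 2, 0 and 2 counts in high replicates 1, 3 and 4 and 3, 17 and 0 counts in low replicates 1, 2 and 5, and the 17 counts fell in a library with 10649 counts of Krt8.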
